A study of Mus musculus with 8 samples.

Results

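The mitochondrial ribosomal protein genes are the nuclear genes that encode the protein subunits of the ribosome inside mitochondria. The 68 genes described here are those whose symbol begins with Mrpl or Mrps and a number and that have a probe set annotated with that symbol alone, out of 14683 genes represented in this way on the array. Each gene was read from 1 probe set. Only Mrpl48 had 2 of them, and the one with the higher mean over the 8 arrays was used. RefSeq lists 78 protein-coding genes of this name. Mrpl53, Mrps22 and Mrps6 were seen only through probe sets shared with another gene, and Mrpl18, Mrpl23, Mrpl27, Mrpl42, Mrpl44, Mrps21 and Mrps33 were not analysed here.

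The mitochondrial ribosome, or mitoribosome, translates the few messenger RNAs transcribed from mitochondrial DNA, and its products are core subunits of the respiratory chain and of ATP synthase. Its ribosomal RNAs come from mitochondrial DNA, but all of its proteins are made in the cytosol and imported. It descends from a bacterial ribosome, and tetracyclines, including doxycycline, can block its small subunit as they block that of bacteria. Of the 68 genes, 45 encode proteins of the large subunit, which holds the peptidyl transferase centre, and 23 are counted with the small subunit, which decodes the messenger RNA. Mrps30 and Mrps18a were counted with the large subunit, where their products are found in structures. The product of Mrps36 has since been assigned to the 2-oxoglutarate dehydrogenase complex, and the gene was kept because it meets the naming rule. By a list drawn up for this report, 27 genes were classed as without a bacterial counterpart. The other 41 genes, Mrpl55 among them, were classed as having one because they were not on that list. Mrps18a and Mrps18b were classed as without one, although their products are related to a bacterial protein. The classes are therefore approximate.

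The RNA came from mouse blood cell precursors made in culture from embryonic stem cells of the line iSOX7, a derivative of Ainv18 in which doxycycline switches on SOX7, a transcription factor of early endothelial and blood precursors. FLK1+ cells from embryoid bodies spent 3 days in liquid blast medium, and CD41+/CD34- cells were sorted from them. These precursors then grew for 12 h or 24 h in the absence or presence of doxycycline. The 4 groups of 2 arrays were therefore no doxycycline at 12 h, doxycycline at 12 h, no doxycycline at 24 h and doxycycline at 24 h, all in iSOX7 cells. The series was designed around SOX7, but the same drug acts on mitoribosomes, so both could reach these genes. Cells given doxycycline without the transgene were not analysed here, so an effect of the drug and an effect of SOX7 cannot be told apart. All values are log2 levels on RMA-summarised Affymetrix arrays, and they measure RNA, not translation.

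Sox7 checked the labels: its log2 level lay between 6.82 and 7.17 on the 4 arrays without doxycycline and between 10.57 and 10.96 on the 4 arrays with it, a rise of 3.895 ± 0.16 (SE) at 12 h (adjusted p = 0.000387) and of 3.71 ± 0.16 at 24 h (adjusted p = 0.000554). The mean level of 10 of 10 endothelial markers ran from 7.53 to 9.01 without doxycycline and from 9.27 to 9.76 with it, and that of 6 of 8 erythroid markers from 11.53 to 12.11 and from 10.86 to 11.30. The mean of 9 of 10 smooth muscle and mesenchyme markers ran from 6.73 to 6.99 on the replicate 1 arrays and from 8.05 to 8.21 on the replicate 2 arrays. The mean of 9 of 9 precursor markers ran from 8.63 to 8.97 without doxycycline and from 8.31 to 8.63 with it, from Itga2b, which encodes CD41, at 9.27 or above on every array, to Ptprc at 4.15 to 7.28. Cd34 was at 9.18 or above although the cells had been sorted as CD34-. The mean of 6 of 8 megakaryocyte markers ran from 6.85 to 8.92 and from 6.45 to 7.97, and that of 7 of 8 myeloid markers from 4.86 to 6.51 and from 4.71 to 5.48. One array differed in its overall distribution: the second array without doxycycline at 24 h had an upper quartile of 8.19 over all probe sets, while the other 7 had 8.38 to 8.57. In bulk RNA, fewer cells of a type and less RNA per cell cannot be told apart. The part of cell mixture and of this array in the values below was not tested, and an added set of values without this array, chosen after seeing the data, is given beside the main 24 h results.

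Some promoter features that the choice of genes did not use were more frequent among these genes than among all windows. RefSeq windows of 300 bases on GRCm38.p6, reaching from 250 bases before the annotated start to 50 bases from it, were at hand for 59 of the 68 genes, as 65 windows. The median window held 22 CpG dinucleotides, while the median over all 32851 windows was 7.0 and over the 21263 windows of protein-coding genes 13.0. Both strands of each window were searched for 5 motifs. The letters CGCNTGCG, the centre of the site bound by NRF1, a regulator of nuclear genes for mitochondrial proteins, stood in 18 windows (27.7%), beside 8.21% of all windows and 11.1% of protein-coding ones. The ETS core CCGGAAG, which is also the core bound by GABP, stood in 20 (30.8%), beside 8.86% and 11.6%. The YY1 core AAGATGGC stood in 11 (16.9%), beside 2.75% and 3.05%. The letters AACAAT, a core bound by SOX proteins, stood in 7 (10.8%), beside 10.7% and 9.05%, and TATAAA in 5 (7.69%), beside 13.6% and 12.6%. Among the 7 windows with AACAAT are overlapping windows of the same gene, Mrpl2, each of them counted. The NRF1 and ETS letters overlapped in 0 of the windows. The NRF1 and ETS letters contain CpG themselves, and the shares were not compared with those of windows of like CpG content. A match describes the letters only and is not evidence of binding.

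Many of these genes start back to back with a neighbour. An opposite-strand start lay within 500 bases upstream for 21 of the 59 genes (35.6%), beside 10.9% of all genes and 11.7% of protein-coding genes in the same table. Mrps11, for a protein of the small subunit platform, and Mrpl46, for a protein of the central protuberance of the large subunit, form such a pair with each other, with starts 42 bases apart. Of the 19 other partners, 16 stand in none of the lists of mitochondrial genes described below, such as Psma2, a proteasome subunit, and Hira, a histone chaperone. The other 3 do: Mrps12 lies 147 bases from Sars2, the mitochondrial seryl-tRNA synthetase, Mrpl43 lies 116 bases from Twnk, the mitochondrial DNA helicase, and Mrpl47 lies 308 bases from Ndufb5, a subunit of respiratory complex I.

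Windows of 3 genes are printed because these genes are described in the doxycycline comparisons below. None of the 3 passed in the main fits, and they were picked with their values known. The first is the Mrps11 window (GRCm38.p6, chr7:78782881-78783180, plus strand), in which capitals mark the 43 bases from the start of Mrpl46 to the start of Mrps11. The second is that of Mrpl57 (chr14:57825989-57826288, plus strand), in which capitals mark an NRF1 match and, behind the start, an ETS match. The third is that of Mrpl47 (chr3:32736706-32737005, minus strand), which holds none of the 5 motifs and has no capitals. All are RefSeq sequence written 5′ to 3′ on the gene's strand.
Mrps11: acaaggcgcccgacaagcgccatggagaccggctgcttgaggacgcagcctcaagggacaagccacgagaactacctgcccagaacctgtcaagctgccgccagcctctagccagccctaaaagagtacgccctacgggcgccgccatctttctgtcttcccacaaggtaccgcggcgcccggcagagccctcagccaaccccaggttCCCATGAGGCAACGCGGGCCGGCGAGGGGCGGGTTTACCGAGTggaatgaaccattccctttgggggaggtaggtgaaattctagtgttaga
Mrpl57: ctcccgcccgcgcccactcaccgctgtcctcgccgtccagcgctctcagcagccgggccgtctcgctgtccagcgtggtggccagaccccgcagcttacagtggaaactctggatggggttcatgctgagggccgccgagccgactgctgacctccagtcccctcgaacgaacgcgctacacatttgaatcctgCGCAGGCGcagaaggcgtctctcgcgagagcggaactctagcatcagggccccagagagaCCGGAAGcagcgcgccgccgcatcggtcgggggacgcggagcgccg
Mrpl47: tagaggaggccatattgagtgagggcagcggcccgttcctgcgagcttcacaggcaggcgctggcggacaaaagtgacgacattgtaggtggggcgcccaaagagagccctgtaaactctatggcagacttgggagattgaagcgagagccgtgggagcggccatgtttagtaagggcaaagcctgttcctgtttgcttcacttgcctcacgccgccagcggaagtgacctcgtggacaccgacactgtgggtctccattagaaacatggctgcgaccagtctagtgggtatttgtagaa
The Mrps11 window also holds a YY1 match, on the opposite strand, and shares 141 bases with the window of Mrpl46.

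Across the family, 0 of 68 genes passed an adjusted p of 0.05 at 12 h with doxycycline, 0 at 24 h and 0 over both times together. In the same fits 0.924% of all 16348 probe sets passed at 12 h, 1.44% at 24 h and 4.42% over both times. At an unadjusted p under 0.05 the counts were 0 genes at 12 h, 2 at 24 h and 5 over both times, while 8.85%, 11.4% and 15.6% of all probe sets reached it. The differences were small: from -0.36 to 0.545 at 12 h and from -0.49 to 0.215 at 24 h on the log2 scale. Their median was -0.10 at 12 h and -0.0925 at 24 h, beside -0.005 and -0.01 over all probe sets and -0.02 and 0.005 over the brighter 10899 probe sets. The difference was below 0 for 51 genes (75%) at 12 h, beside 50.6% of all probe sets. At 24 h it was below 0 for 51 (75%), beside 51.6%.

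The precision sets how far these values go. The median standard error of a gene's difference was 0.171 at each time, which makes the 95% interval of a single gene reach 0.400 to either side. These fits had no term for the replicate number, so the gap between replicates is part of this error. That interval lay within a 2-fold change in either direction for 66 of the 68 genes at 12 h and for 66 at 24 h, beside 85.4% and 83.9% of all probe sets, and the 2 exceptions at both times were Mrpl48 and Mrpl51. It lay within 1.5-fold for 45 of the 68 genes at 12 h and 43 of the 68 at 24 h, beside 48.8% and 47.5% of all probe sets. Over both times it lay within 2-fold for 67 of the 68 genes, beside 91.8%, and within 1.5-fold for 63 of them, beside 73.1%. Whether the replicates are separate cultures is not given in the sources used here. The p-values therefore reflect the spread between these arrays alone, and that spread may be technical.

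**Figure D1:**
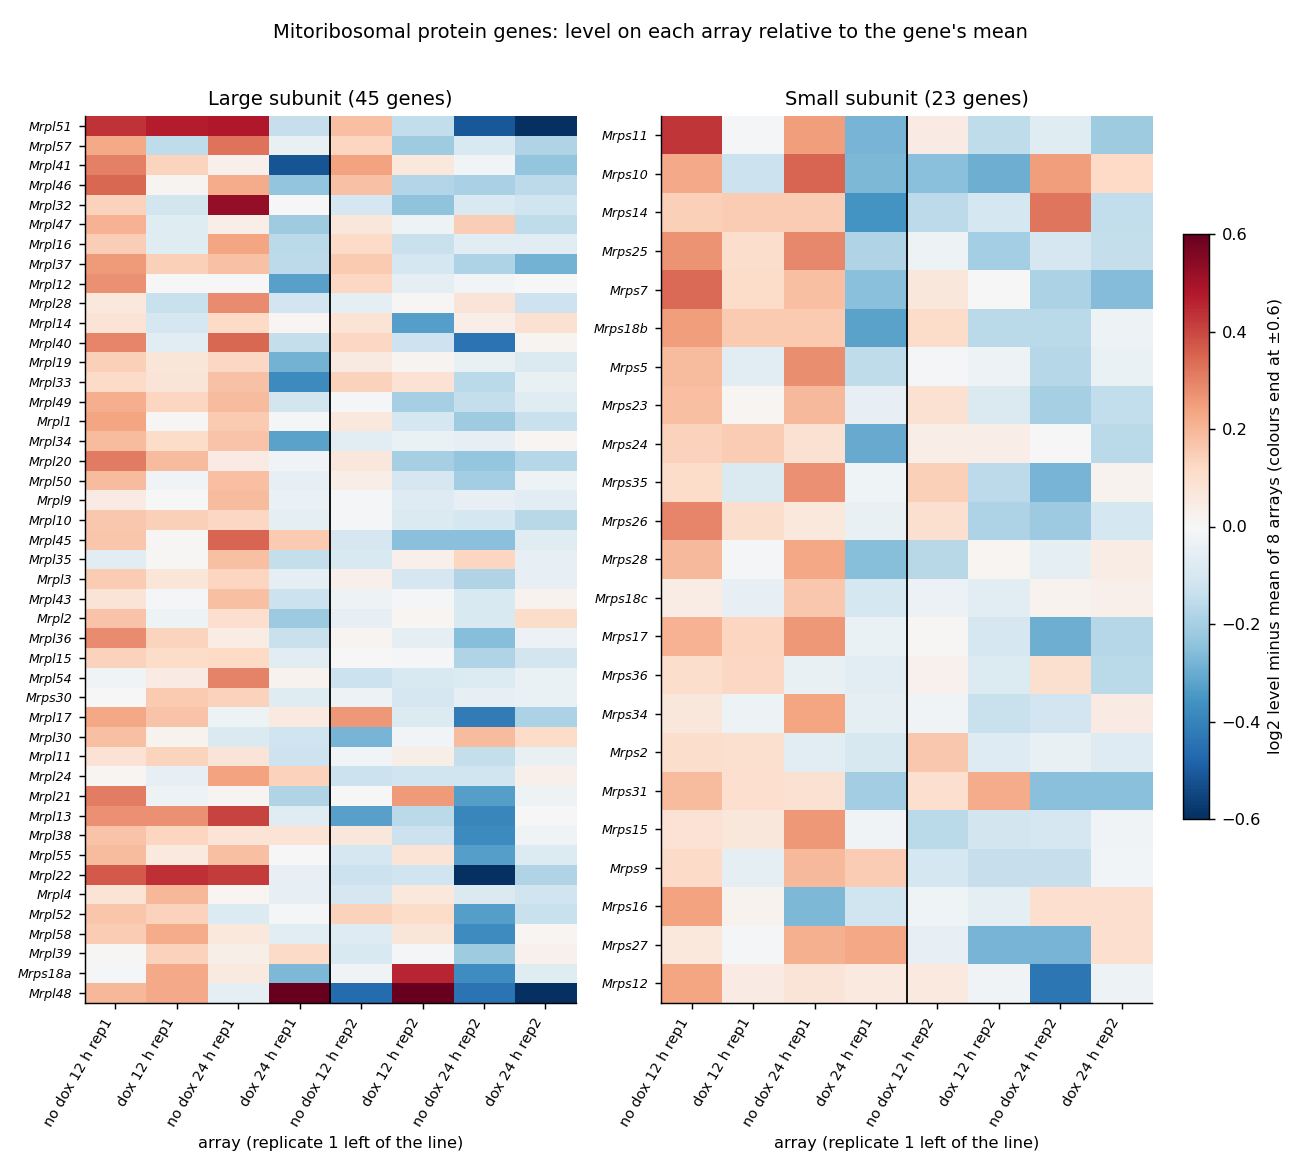
Log2 level of each gene on each array minus the gene's mean over the 8 arrays, with 45 large subunit genes on the left, 23 small subunit genes on the right, and the replicate 1 arrays left of the black line in each panel. Most genes are redder on the first 3 replicate 1 arrays than on the doxycycline array of that replicate at 24 h or on the replicate 2 arrays.

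The heat map of levels by array shows a gap between replicates as well as between treatments. Replicate 1 was higher than replicate 2 for 63 of 68 genes without doxycycline at 12 h, for 55 with it at 12 h, for 62 without it at 24 h and for 30 with it at 24 h. The median gap between replicates was 0.15, 0.11, 0.325 and -0.025 in the same order, beside 0.03, 0.02, 0.16 and 0 over all probe sets. Replicate 1 was the higher one in all 4 groups for 24 genes (35.3%), beside 22% of all probe sets. It was the lower one in all 4 for 0 genes, beside 11.9%. The mean over the 68 genes was 8.80 and 8.62 on the untreated arrays at 12 h and 8.69 and 8.57 on the doxycycline arrays. At 24 h it was 8.78 and 8.47 on the untreated arrays and 8.53 and 8.54 on the doxycycline arrays. At 12 h each array with doxycycline was below the array of its own number without it. At 24 h this held for replicate 1 alone.

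Within same-numbered pairs the family was lower with doxycycline in 3 of the 4 pairs. At 12 h the level was lower with doxycycline for 53 genes (77.9%) in the first pair and for 45 (66.2%) in the second. Of all probe sets, 51.2% and 49.2% were lower. At 24 h it was lower for 61 genes (89.7%) in the first pair, beside 58.7% of all probe sets. In the second it was lower for only 22 (32.4%), beside 41.5%. The median differences of the 4 pairs were -0.09, -0.07, -0.28 and 0.065, and those of all probe sets were -0.01, 0, -0.06 and 0.06. The second 24 h pair contains the array with the lower upper quartile. A repeated quantile normalization was also run on the whole table, and counting within pairs after it was added once the data had been seen. The counts of lower genes were then 49, 42, 52 and 45 of 68, beside 51.7%, 52.7%, 49.4% and 53.4% of all probe sets. The medians were -0.0703, -0.0544, -0.182 and -0.0872. The plot of differences by pair shows both versions.

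**Figure D2:**
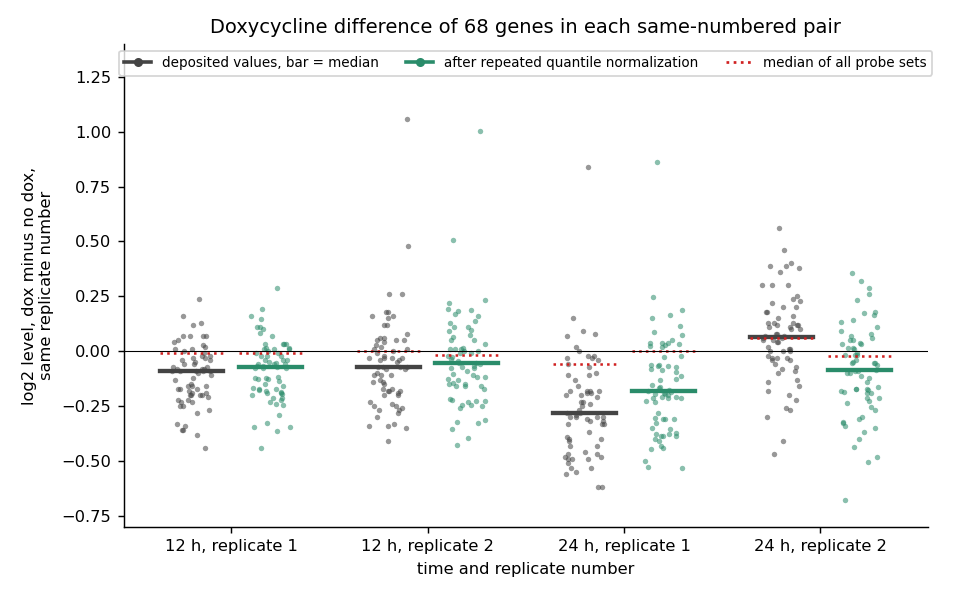
Log2 level with doxycycline minus without it in each of the 4 same-numbered pairs, 1 point per gene for 68 genes, as deposited (grey) and after a repeated quantile normalization (green), with bars at the medians and dotted lines at the median of all probe sets. The grey median of the second 24 h pair is 0.065 and the green one -0.0872, while the other 3 pairs have medians below 0 in both versions.

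At 12 h the lowest differences were those of Mrpl57, Mrpl46 and Mrps11. Mrpl57 encodes a small protein of the large subunit with no bacterial counterpart, and its log2 level was 8.88 and 8.78 on the untreated arrays and 8.50 and 8.44 on the doxycycline arrays. The groups did not overlap, and the difference was -0.36 ± 0.17 (SE, adjusted p = 0.647). Mrpl46 was at 9.43 and 9.26 without doxycycline and at 9.10 and 8.91 with it, again without overlap, with a difference of -0.34 ± 0.18 (adjusted p = 0.703). Its head-to-head neighbour Mrps11 was at 7.86 and 7.48 and at 7.42 and 7.28. The groups were close but did not overlap, and the difference was -0.32 ± 0.18 (adjusted p = 0.757).

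In all, 22 genes (32.4%) had both 12 h arrays with doxycycline below both without it, and 22.3% of all probe sets did. Mrpl14, whose product sits on the face where the subunits meet, was among them, at 7.92 and 7.92 without doxycycline and 7.74 and 7.51 with it (-0.295 ± 0.14, adjusted p = 0.644). Its adjusted p was the smallest of the family at 12 h. Mrpl12, for the stalk protein that recruits translation factors, was at 9.97 and 9.82 without doxycycline and 9.70 and 9.64 with it (-0.225 ± 0.155, adjusted p = 0.847). The opposite order was seen in 3 genes (4.41%), Mrpl35, Mrpl48 and Mrps18a, beside 21.7% of all probe sets.

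Mrps18a and Mrpl48 had the highest 12 h differences. Mrps18a encodes 1 of 3 mammalian proteins related to bacterial S18, and its level was 9.54 and 9.53 without doxycycline and 9.78 and 10.01 with it, a difference of 0.36 ± 0.18 (adjusted p = 0.688). At 24 h it was 9.61 and 9.18 without doxycycline and 9.28 and 9.48 with it, so the groups overlapped (-0.015 ± 0.18). The test of the change between times gave -0.375 ± 0.26 (adjusted p = 1.000). The other proteins related to S18 had 12 h differences below 0: Mrps18b -0.18 ± 0.19 and Mrps18c -0.06 ± 0.13 (adjusted p = 0.946 and 0.992).

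Mrpl48, for a central protuberance protein like Mrpl46, had the largest standard error of the family. It read 4.42 and 3.76 without doxycycline and 4.45 and 4.82 with it at 12 h, then 4.17 and 3.78 and 5.01 and 3.37 at 24 h. Its differences of 0.545 and 0.215 each had a standard error of 0.494, and at 24 h the array with the highest and the array with the lowest level were both in the doxycycline group. With a mean of 4.22 on the probe set used, Mrpl48 was also the dimmest gene of the family. Its second probe set, dimmer still at 1.28 to 3.47, gave 0.81 ± 0.60 and 0.705 ± 0.60 (adjusted p = 0.871 and 0.820). At 12 h that probe set read 3.47 and 1.28 with doxycycline and 1.67 and 1.46 without it, so the groups overlapped. Mrpl4, whose product lines the exit tunnel, had the next highest 12 h difference, 0.14 ± 0.14 (adjusted p = 0.939).

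**Figure D3:**
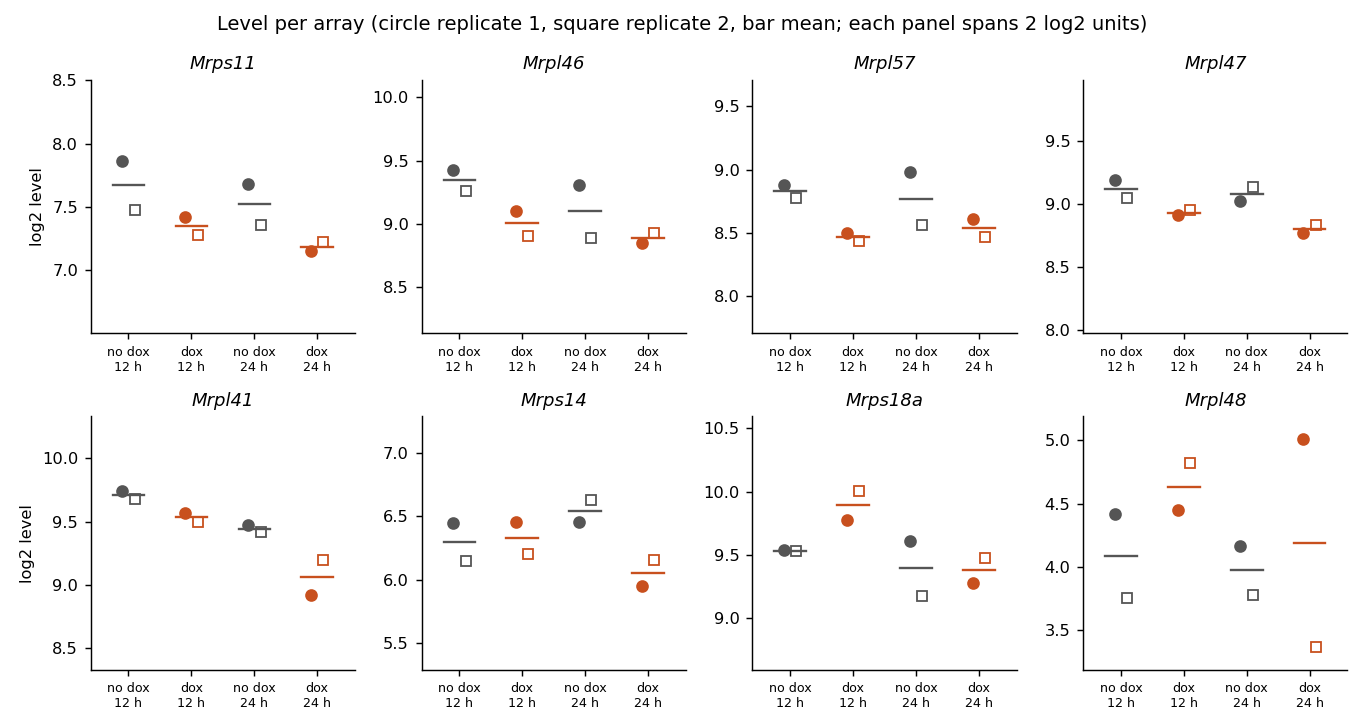
Log2 level per array of 8 genes in the 4 groups, with a circle for replicate 1, a square for replicate 2 and a bar at the mean of 2 arrays, and 2 log2 units on each vertical axis. Mrps11, Mrpl57, Mrpl47 and Mrpl41 are lower with doxycycline in each same-numbered pair, while Mrpl48 spans more than 1 unit within the doxycycline group at 24 h.

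At 24 h the lowest differences were those of Mrps14, Mrpl51 and Mrpl41, and the first and last of these were the 2 genes with an unadjusted p under 0.05. Mrps14, a small subunit protein with a bacterial counterpart, was at 6.46 and 6.63 without doxycycline and at 5.95 and 6.16 with it, without overlap (-0.49 ± 0.17, adjusted p = 0.312). At 12 h it had been at 6.45 and 6.15 without doxycycline and 6.46 and 6.20 with it (0.03 ± 0.17). The change between times, -0.52 ± 0.25, was the largest of the family and did not pass (adjusted p = 1.000).

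Mrpl41, for a large subunit protein without a bacterial counterpart, was at 9.47 and 9.42 without doxycycline and 8.92 and 9.20 with it at 24 h (-0.385 ± 0.145, adjusted p = 0.350). At 12 h its 4 arrays had been 9.74 and 9.68 against 9.57 and 9.50, also without overlap. Mrpl51 was at 7.89 and 6.90 without doxycycline and 7.27 and 6.63 with it, so the groups overlapped and the difference of -0.445 ± 0.37 was within the spread between replicates (adjusted p = 0.818). Mrps10, for a protein of the small subunit head, was at 8.64 and 8.54 without doxycycline and 8.02 and 8.41 with it (-0.375 ± 0.21, adjusted p = 0.620).

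Doxycycline arrays lay below both others at 24 h in 13 genes (19.1%), beside 16.2% of all probe sets, and above both in 0 genes, beside 15.2%. Of the 13, 8 are counted with the small subunit, Mrps36 among them, and Mrps7, whose bacterial counterpart starts assembly of the small subunit head, was 1 of them at 10.08 and 9.71 against 9.65 and 9.64 (-0.25 ± 0.17, adjusted p = 0.741). The highest differences at 24 h, beside Mrpl48, were those of Mrps27, an RNA-binding pentatricopeptide repeat protein gene, and Mrps12, whose bacterial counterpart lies in the decoding centre. Mrps12 was at 7.56 and 7.05 without doxycycline and 7.54 and 7.45 with it, with overlapping groups (0.19 ± 0.19, adjusted p = 0.864). Mrps27 was at 7.70 and 7.21 and at 7.72 and 7.59 (0.20 ± 0.195, adjusted p = 0.859). In both genes the low array of the untreated group is the one with the lower upper quartile, and without it the differences were -0.065 for Mrps12 and -0.045 for Mrps27.

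The median of the family at 24 h depended on that array. Without it, the median difference at 24 h was -0.2375 and 63 genes were below 0. Without the other untreated 24 h array it was 0.0425 and 27 genes were below 0. In neither case did a gene pass at 24 h. Without the array with the lower upper quartile, Mrpl51 differed by -0.94, Mrps14 by -0.405, Mrpl41 by -0.41, Mrps10 by -0.425, Mrps7 by -0.435, Mrps18a by -0.23 and Mrpl48 by 0.02. The size and even the sign of the family's 24 h shift thus rest on a single array of 2. These 2 untreated arrays also differed across the whole table. The median of replicate 1 minus replicate 2 was 0.16 over all probe sets and 0.325 over these genes. Medians of all probe sets without an array are not given here, so how far such shifts are particular to the family cannot be read from them. The same limit applies to the other medians without this array below.

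**Figure D4:**
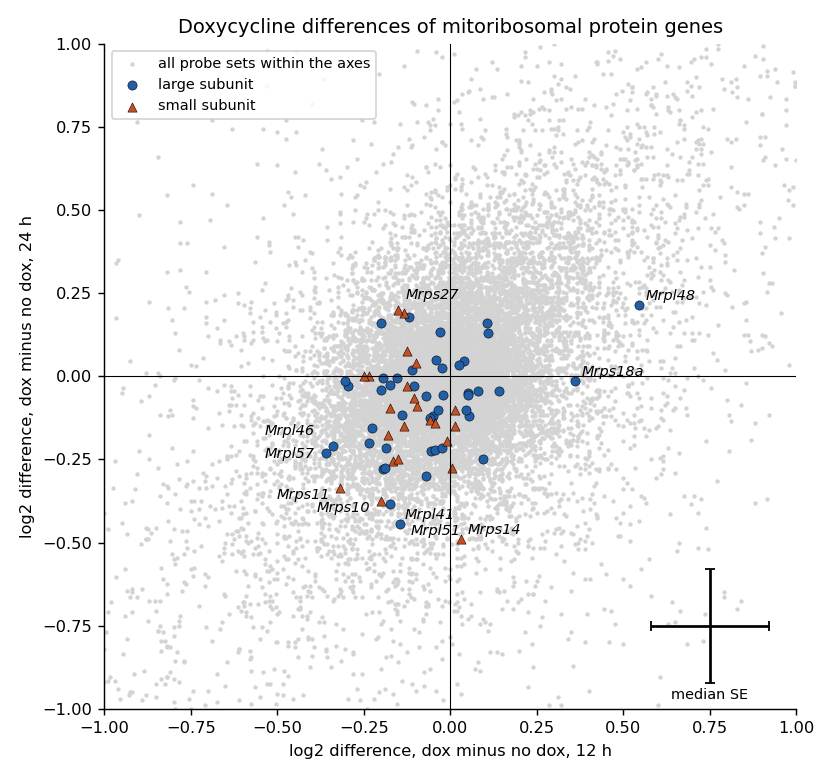
Log2 difference between doxycycline and no doxycycline at 12 h (horizontal) and 24 h (vertical) for 45 large subunit genes (blue circles) and 23 small subunit genes (orange triangles) over all probe sets within 1 log2 unit (grey), with the median standard error of a gene drawn at lower right. The coloured points lie inside the grey cloud, 51 of 68 to the left of 0 and 51 of 68 below 0.

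Over both times, 4 arrays with doxycycline were set against 4 without it in a fit with a term for time. The difference was below 0 for 53 genes (77.9%), beside 51.6% of all probe sets, with a median of -0.0925, beside -0.0075. The smallest adjusted p belonged to Mrpl41 (-0.28 ± 0.10, adjusted p = 0.206). Mrps11 followed at -0.3275 ± 0.12 (adjusted p = 0.216), then Mrpl47 at -0.2325 ± 0.086 (adjusted p = 0.223), Mrpl57 at -0.295 ± 0.11 (adjusted p = 0.246) and Mrpl46 at -0.275 ± 0.12 (adjusted p = 0.311). These are the 5 genes with an unadjusted p under 0.05.

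Mrpl47, the counterpart of bacterial L29 beside the exit tunnel, was the only gene whose 4 doxycycline arrays all lay below its 4 other arrays. It was at 9.19 and 9.05 without doxycycline and 8.91 and 8.95 with it at 12 h, and at 9.02 and 9.13 and 8.77 and 8.83 at 24 h. Such an order was seen in 3.58% of all probe sets, and the reverse order in 5.43% of them and in 0 of these genes. Doxycycline arrays were lower in 4 of 4 same-numbered pairs for 13 genes (19.1%), beside 13.2% of probe sets. These genes were Mrpl9, Mrpl10, Mrpl19, Mrpl32, Mrpl37, Mrpl41, Mrpl47, Mrpl57, Mrps2, Mrps7, Mrps10, Mrps11 and Mrps25. Doxycycline arrays were higher in 4 of 4 pairs for Mrpl39 alone, beside 14.4%, with a difference of 0.1325 ± 0.096 (adjusted p = 0.625).

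Mrpl57 was the gene closest to the threshold once the processing varied. At 24 h it read 8.98 and 8.56 without doxycycline and 8.61 and 8.47 with it, which overlap. Its difference over both times was -0.304 after a repeated quantile normalization (adjusted p = 0.0299), -0.353 with array quality weights (adjusted p = 0.0476) and -0.392 without the second untreated array at 24 h (adjusted p = 0.0456). It was the 1 gene called lower in each of those 3 fits, and 0 genes passed in the other alternatives for this comparison. In the main fit 4.42% of all probe sets passed over both times. The shares of all probe sets in those 3 fits are not given here, so 1 gene passing cannot be read as particular to the family.

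The values were also split by subunit. The large subunit median was -0.06 at 12 h and -0.055 at 24 h, with 32 and 34 of 45 genes below 0, and the small subunit median -0.125 and -0.13, with 19 and 17 of 23 below 0. Without the untreated 24 h array with the lower upper quartile, the 24 h medians were -0.225 and -0.29. Over both times, 32 large subunit and 21 small subunit genes were below 0. Genes classed as having a bacterial counterpart had medians of -0.07 and -0.09 at 12 h and 24 h. Those classed as without one had -0.145 and -0.095. When that array was left out, the 24 h medians of these classes were -0.225 and -0.275. The difference between the subunits or between these classes was not tested. For the 6 genes named for their place at functional centres, the 95% interval of the difference included 0 at both times. Mrpl12 was at -0.225 ± 0.155 and -0.155 ± 0.155, Mrps12 at -0.135 ± 0.19 and 0.19 ± 0.19, and Mrps7 at -0.15 ± 0.17 and -0.25 ± 0.17. Mrpl11 at the stalk base was at 0.05 ± 0.14 and -0.05 ± 0.14, Mrpl3 near the peptidyl transferase centre at -0.105 ± 0.16 and -0.03 ± 0.16, and Mrps5, the counterpart of a bacterial protein that affects decoding accuracy, at -0.135 ± 0.18 and -0.15 ± 0.18. The interval also included 0 at both times for Mrpl21 (-0.04 ± 0.19 and 0.05 ± 0.19), Mrpl33 (-0.045 ± 0.17 and -0.22 ± 0.17) and Mrps23 (-0.175 ± 0.16 and -0.095 ± 0.16), of which the first 2 encode counterparts of bacterial proteins.

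The doxycycline differences can also be set beside the promoter letters. The 18 genes with NRF1 letters had a median difference of -0.15 at 12 h and -0.0775 at 24 h, and the 41 without had -0.095 and -0.10. The 20 genes with ETS letters had -0.0825 and -0.0075, and the 39 without had -0.125 and -0.12. Without the same array the 24 h medians were -0.235 and -0.23 for NRF1 letters present and absent, and -0.1925 and -0.275 for ETS letters present and absent. These are descriptions of the 59 genes with a window, without a test.

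Culture time changed no gene of the family past the threshold either. From 12 h to 24 h, 0 of 68 genes passed without doxycycline, beside 0.147% of all probe sets, and 0 with it, beside 0.184%. At an unadjusted p under 0.05 the counts were 2 and 4 genes, beside 7.46% and 6.83%. The change of the doxycycline difference between the times also passed in 0 genes and in 0% of all probe sets, and at an unadjusted p under 0.05 in 0 genes and 3.09% of probe sets. The time comparisons share arrays with the doxycycline comparisons, so their values are not independent. The median over time was -0.075 without doxycycline and -0.095 with it. Below 0 were 48 genes (70.6%) and 49 genes (72.1%), beside 50.3% and 52.1% of all probe sets. Without the untreated 24 h array with the lower upper quartile, the first of these medians was 0.06.

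Over time without doxycycline, Mrpl17, near the exit tunnel, was at 7.16 and 7.19 at 12 h and 6.90 and 6.51 at 24 h (-0.47 ± 0.18, adjusted p = 0.610). Mrpl52 was at 9.39 and 9.36, then 9.14 and 8.89 (-0.36 ± 0.14, adjusted p = 0.618). Without the second 24 h array these differences were -0.275 and -0.235. In both genes the 2 times did not overlap, which was so in the downward direction for 8 genes (11.8%) and 14.3% of all probe sets. Mrps10 and Mrps14 were highest, at 0.31 ± 0.21 and 0.245 ± 0.17 (adjusted p = 0.839 and 0.853). They were 2 of the 4 genes higher without overlap, 5.88% of the family, beside 14.6% of all probe sets.

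Over time with doxycycline, Mrpl41 had the smallest adjusted p, with a difference of -0.475 ± 0.145 (adjusted p = 0.499). Mrps18a differed by -0.515 ± 0.18 (adjusted p = 0.618) and Mrpl51 by -0.62 ± 0.37 (adjusted p = 0.891). Mrps27 and Mrpl14 were highest, at 0.31 ± 0.195 and 0.265 ± 0.14 (adjusted p = 0.914 and 0.844). In this comparison 18 genes (26.5%) were lower at 24 h without overlap and 5 (7.35%) were higher, beside 20.5% and 18.7% of all probe sets.

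Other genes of mitochondrial gene expression were read in the same fits, and 0 of them passed at 12 h or at 24 h with doxycycline in any of the lists below. For 23 measured mitoribosome assembly and rRNA modification genes the median difference was -0.125 at 12 h and -0.055 at 24 h, for 21 translation factors -0.155 and 0, for 20 aminoacyl-tRNA synthetase and related genes -0.1425 and -0.025, and for 19 genes of mitochondrial DNA and its transcription -0.11 and -0.03. Tfam, which packages and helps transcribe mitochondrial DNA, was at 8.56 and 8.35 without doxycycline and 8.19 and 8.16 with it at 12 h. Its difference, -0.28 ± 0.18 (adjusted p = 0.821), was the lowest of that last list along with Polg2, and at 24 h it was -0.01. In that list 14 genes were below 0 at 12 h and 11 at 24 h. Polg was highest at 12 h, at 0.285 ± 0.13 (adjusted p = 0.633). Ppargc1a, at levels of 2.82 to 3.41, was highest at 24 h, at 0.40 ± 0.19 (adjusted p = 0.518). Sars2 and Twnk, the back-to-back neighbours of Mrps12 and Mrpl43, differed by -0.22 and -0.205 at 12 h and by 0.01 and -0.135 at 24 h. Ndufb5, the neighbour of Mrpl47, lay above 0, at 0.055 at 12 h and 0.095 at 24 h. The 12 h adjusted p values of these neighbours were 0.890, 0.885 and 0.995. Of 5 mitoribosome proteins with other symbols, 3 were measured, with medians of -0.065 and -0.095. The 16 measured cytosolic ribosomal protein genes had medians of 0.005 and -0.1075. Without the array with the lower upper quartile, the 24 h medians were -0.245 for assembly genes, -0.305 for translation factors, -0.195 for the synthetase list, -0.175 for mitochondrial DNA and transcription, -0.36 for the 3 other mitoribosome proteins and -0.1825 for cytosolic ribosomal proteins.

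The 49 measured nuclear genes for respiratory chain and ATP synthase subunits had median differences of -0.015 at 12 h and -0.175 at 24 h with doxycycline. At 24 h 43 of the 49 were below 0, beside 51.6% of all probe sets. Over time without doxycycline their median was 0.145 with 3 of 49 below 0, whereas that of the mitoribosomal genes was -0.075 with 48 of 68 below 0. Of all probe sets 50.3% were below 0 over that time. Without the array with the lower upper quartile, the median of the 49 was -0.29 at 24 h and 0.305 over time, and that of the mitoribosomal genes -0.2375 and 0.06. None of the 49 passed in these comparisons, and at an unadjusted p under 0.05 they numbered 0 at 12 h, 3 at 24 h and 2 over time. The shares of all probe sets were 8.85%, 11.4% and 7.46%. Transcripts of mitochondrial DNA itself were not analysed here.

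**Figure D5:**
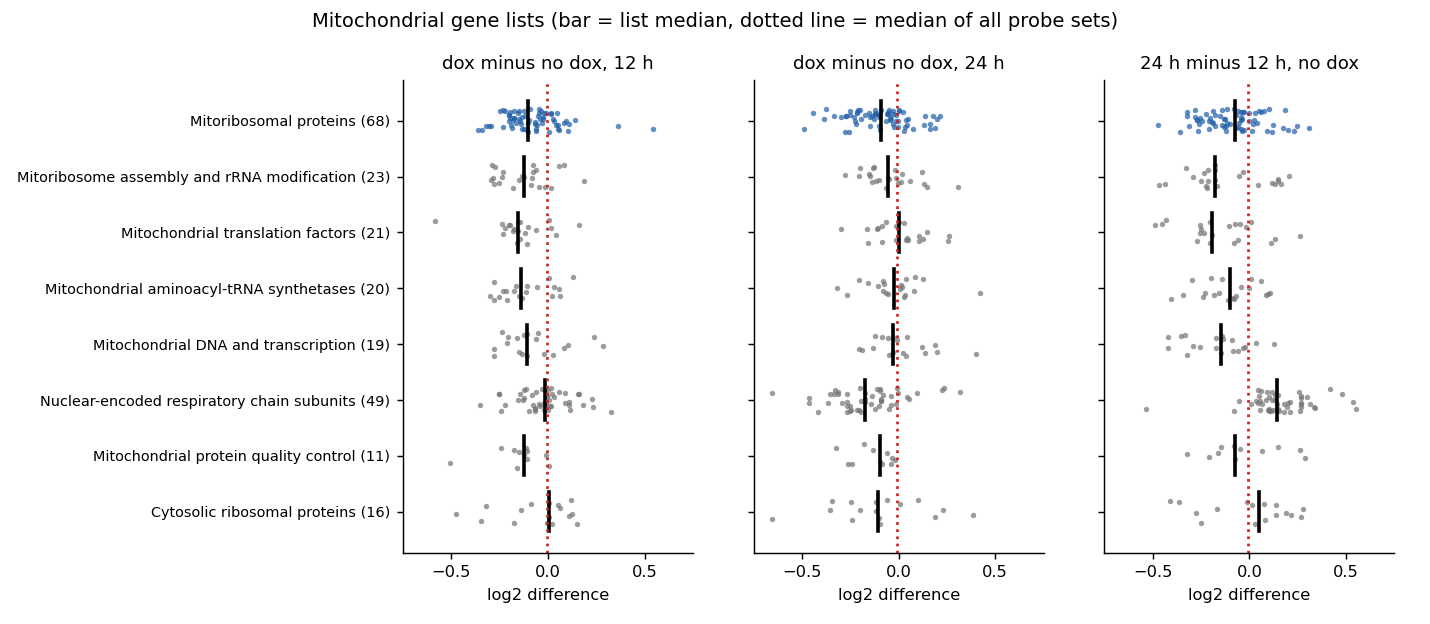
Log2 difference of each gene in 8 lists for doxycycline at 12 h, doxycycline at 24 h and 24 h against 12 h without doxycycline, with bars at list medians and dotted lines at the median of all probe sets. Mitoribosomal genes (blue) have medians of -0.10, -0.0925 and -0.075, and respiratory chain subunits have -0.015, -0.175 and 0.145.

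Genes known to answer mitochondrial stress gave a mixed picture. Among 11 measured genes of mitochondrial chaperones and proteases 0 passed, and the medians were -0.125 at 12 h and -0.095 at 24 h. The difference was below 0 for 10 of them at 12 h and for 11 at 24 h, beside 50.6% and 51.6% of all probe sets. Htra2 was the lowest at both times, at -0.51 ± 0.17 (adjusted p = 0.342) and -0.325. Among 17 measured genes of the response through the transcription factor ATF4, the medians with doxycycline were -0.07 and -0.07, 11 and 10 genes were below 0, and 0 passed at either time. The smallest adjusted p of this list was 0.353 at 12 h and 0.118 at 24 h. At an unadjusted p under 0.05, in either direction, its genes numbered 3 at 12 h, 4 at 24 h and 7 over both times. The shares of all probe sets were 8.85%, 11.4% and 15.6%. Without the array with the lower upper quartile the 24 h medians were -0.22 for the first list and -0.18 for the second. Atf4 itself differed by -0.195 and -0.225, and Trib3 and Ddit3, both activated under such stress, by -0.57 and -0.695 at 12 h and by -0.535 and -0.39 at 24 h. Other members lay above 0 at 24 h: Chac1, a glutathione-degrading enzyme induced in this response, differed by 0.285 at 12 h and 0.465 at 24 h (adjusted p = 0.707 and 0.251), Ddit4 by 0.095 and 0.715 (adjusted p = 0.983 and 0.118), Pck2 by 0.01 and 0.30 (adjusted p = 0.995 and 0.518) and Aldh18a1 by -0.01 and 0.35 (adjusted p = 0.995 and 0.544). Slc7a11, the cystine transporter, fell by 1.0575 over both times (adjusted p = 0.0464), and with the replicate number as a block its adjusted p was 0.0016. With each array left out in turn, in fits without that block, its adjusted p ran from 0.0298 to 0.141, and it passed only without the first untreated 12 h array. Ddit4, an inhibitor of mTORC1 signalling, rose over culture time, from 7.85 and 7.86 at 12 h to 9.59 and 9.36 at 24 h without doxycycline (1.62, adjusted p = 0.0244) and from 8.08 and 7.82 to 10.35 and 10.03 with it (2.24, adjusted p = 0.00737). In the fit with the replicate number as a block, these adjusted p values were 0.0115 without doxycycline and 0.0039 with it. With each array left out in turn, the adjusted p of the rise in Ddit4 ran from 0.0481 to 0.203 without doxycycline, where it passed only without 1 of the doxycycline arrays at 12 h, and from 0.0178 to 0.126 with it, where it did not pass without the first doxycycline array at 24 h or the second at 12 h.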

How the data were processed

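The deposited values were log2 expression levels, 1 column per array for 16348 probe sets and 8 arrays. Per the submitters' processing notes, the authors made them with RMA in Affymetrix Power Tools, whose version and genome build are not given in the sources used here. RMA corrects background, quantile normalizes and summarises probes, which can move a small shift shared by many genes. Groups and replicate numbers came from the sample titles, and 0 columns stayed unmapped. Symbols came from the platform annotation (14785 probe sets with 1 symbol, 950 with several, 613 with none). Promoter windows came from RefSeq (GRCm38.p6).

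All probe sets were fitted with limma 3.58.1 in R 4.3.3 (lmFit, eBayes), with 1 mean per group (4 residual degrees of freedom, prior 3.44), or with terms for doxycycline and time for the comparison over both times (5, prior 3.33). Benjamini-Hochberg adjustment ran over all probe sets, and a gene passed at an adjusted p under 0.05. Errors are standard errors unless stated. The script was tested on simulated data. Sequencing depth has no counterpart on arrays, so the number of arrays limits the precision. No background level is known, since detection calls were not part of the table.

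The genes, the lists of other genes and the tests were chosen with earlier results of these data known. The naming rule took the genes with the 3 highest and 3 lowest differences for doxycycline, the 2 highest and 2 lowest for the other comparisons, the 3 brightest and 3 dimmest, Mrps12, Mrps7, Mrpl12, Mrpl11, Mrpl3 and Mrps5, 26 genes in all. Others, such as Mrpl47, were named after their values were seen. Replicate numbers were taken to pair the arrays only in the counts within same-numbered pairs and in the replicate block. The reason was that deviations from group means correlated between same-numbered arrays in every pair of groups (r from 0.298 to 0.428 over probe sets). The main fits had no replicate term, so their standard errors and p-values leave this pairing out. Alternatives were a repeated quantile normalization, median centring, eBayes with a trend or robust, a fit of 1 probe set per gene, a filter against the dimmest 33.3%, the mean of several probe sets for Mrpl48, array weights, the replicate block, a fit of the 2 groups alone, and omission of each array in turn.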

Additional observations from a re-analysis of the deposited data

How the results depend on the processing

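Among the counts of genes passing, only that for doxycycline over both times moved. It was 1, Mrpl57, with a repeated quantile normalization, with array quality weights and without the second untreated array at 24 h. In the other alternatives run it was 0. The main fit passed 4.42% of all probe sets in this comparison, and the shares in the fits where Mrpl57 passed are not given here. In the alternatives that keep all arrays, the median difference stayed between -0.14 and -0.072 at 12 h, between -0.1325 and -0.0925 at 24 h, and between -0.1312 and -0.0925 over both times. For the change between times it stayed between -0.0687 and -0.005, and over culture time between -0.0925 and -0.0427 without doxycycline and between -0.1183 and -0.0925 with it.

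With each array left out in turn, the medians ran from -0.1925 to -0.015 at 12 h, from -0.2375 to 0.0425 at 24 h, from -0.1395 to -0.0375 over both times, from -0.165 to 0.1575 for the change between times, from -0.255 to 0.06 over time without doxycycline and from -0.145 to -0.01 with it. The ends at 24 h, for the change between times and for time without doxycycline came from leaving out 1 of the untreated 24 h arrays. The count over both times ran from 0 to 1. With a single array left in a group, that array is assumed to vary like the others.

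With the replicate number as a block, 0 genes passed in each comparison and the medians did not move, while the count of all probe sets passing over both times went from 723 to 1231. The block changed no call in this family. Of 30 named results under 497 alternative values, 4 changed sign and 3 became significant, all 3 in Mrpl57. With 2 arrays per group, the median 95% interval of a single gene at 12 h or 24 h reached 0.400 to either side, beyond the median shift of the family.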
